A study of Mus musculus with 30 samples.

Results

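TH2 cells were compared with naive CD4 T cells by RNA-seq, in 2 TH2 libraries and 2 naive libraries of the 30 libraries in the series. Members were chosen by library label alone. All cells came from spleens of C57BL/6 mice aged 8 weeks. The naive cells were sorted as CD4+CD62L+CD44-CD25- from wild type mice. The TH2 cells were sorted as CD4+hCD2+ from IL-4BacTg mice (genotype given as wild type IL-4BacTg), with hCD2 and the transgene named in the labels and not described further there. A further replicated group, CXCR5hi PD1+ CD45.2+ follicular helper cells of OTII Tg mice (TFH, 2 libraries), entered the fit so that the spread between libraries rested on 6 libraries. The 2 groups with 1 RNA-seq library each were left out. TH2 and naive libraries therefore differ in genotype and in sort gate as well as in cell type, and these cannot be told apart. The labels name no animal, immunisation or pooling.

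Naive CD4 T cells circulate between blood and lymphoid organs, guided by CCR7, and are kept quiescent by factors such as TCF-1, LEF-1, KLF2 and FOXO1. After antigen contact and IL-4 signalling through STAT6, some become TH2 cells, which depend on the transcription factor GATA3. TH2 cells make IL-4, IL-5 and IL-13, the cytokines of allergy and of defence against worms, and their tissue forms carry the receptor for IL-33.

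Before the expression results, the antigen receptor transcripts need to be described, because they set the TH2 libraries apart in a way that their label does not. The label of the TH2 libraries names no T cell receptor transgene. In both, nearly all alpha chain V segment signal came from a single family: Trav14 segments held 99.3 and 99.0% of the CPM (counts scaled to a library of 1 M, corrected by TMM factors) summed over 71 Trav segments, against 18.1 and 16.8% in the naive libraries. Among 23 Trbv segments, Trbv26 held 18.2 and 18.6% in TH2, 2.34 and 2.23% in naive and 6.616 and 6.875% in TFH libraries. The Trbv12 family held 71.3 and 70.2% in TH2 libraries and 10.0 and 9.84% in naive libraries. The TFH libraries, labelled OTII, had 96.5 and 96.1% Trav14 and 77.8 and 79.3% Trbv12. As background, OTII is a transgenic receptor for ovalbumin built from these families. Whether the mice of the TH2 libraries carried it was not tested, and both TH2 libraries show this bias. The copies of Trav14 are near-identical, so the split of reads among them is uncertain and the family sum may count a read more than once. Trac, the constant region of the alpha chain, was at 386 and 375 CPM in the naive and 16380.0 and 11000.0 CPM in the TH2 libraries. In the TFH libraries Trac was at 6127 and 5916 CPM. The beta chain constant regions differed far less: Trbc1 (718.4 and 710.2 CPM in naive, 840.5 and 771.9 CPM in TH2 libraries) and Trbc2 (997.5 and 999.6 CPM, then 1435 and 1282 CPM). T cell receptor genes together took 0.322 and 0.324% of naive counts, 4.28 and 3.30% of TH2 counts and 1.939 and 1.915% of TFH counts. With these genes left out of the fit, an alternative chosen after seeing the data, the numbers of called genes given below changed little, to 10877 and 3860.

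**Figure D1:**
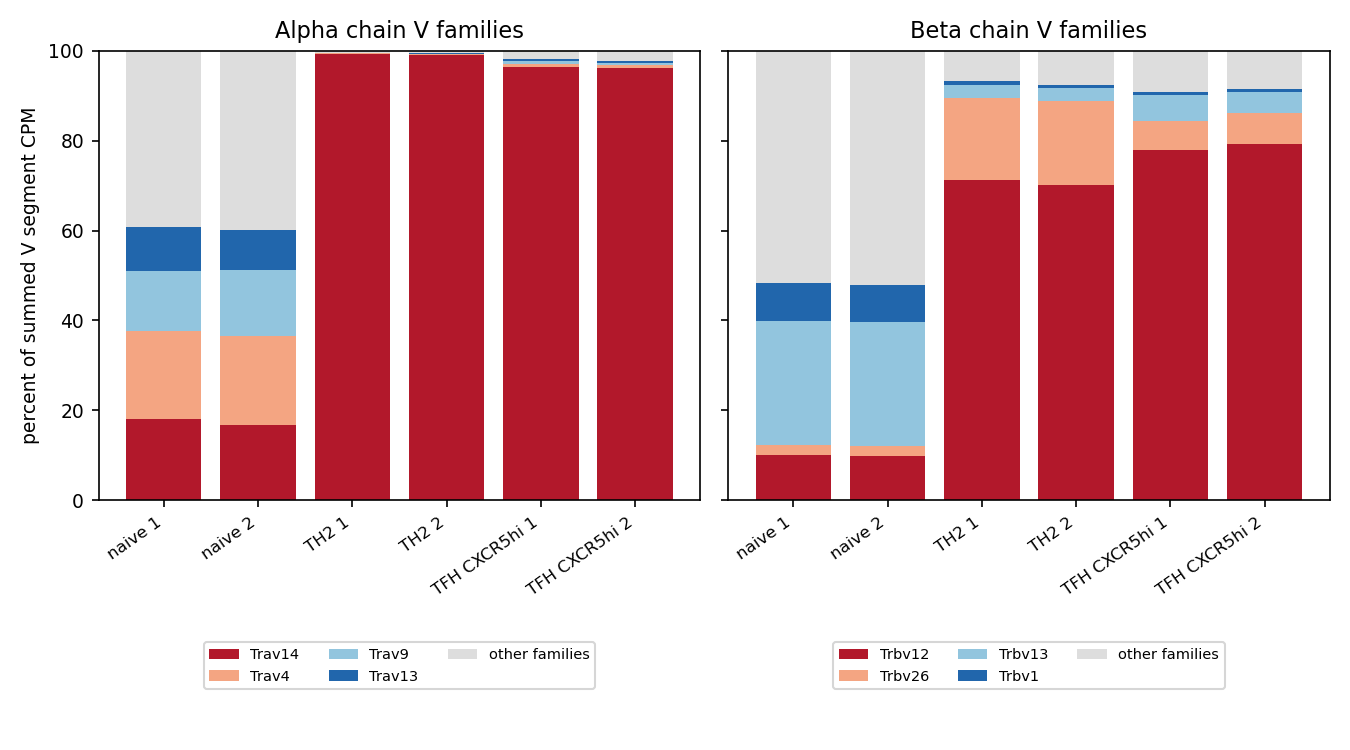
Share of summed V segment CPM held by 4 alpha chain families (left) and 4 beta chain families (right) in each of 6 libraries, as stacked bars adding to 100%, with all other families in grey. Trav14 fills 99.0 to 99.3% of the alpha bars of the TH2 libraries and 16.8 to 18.1% of those of the naive libraries.

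The naive libraries held 96001998 and 107398014 counts over all transcripts and the TH2 libraries 63324753 and 71918887. Genes with at least 10 counts numbered 14485 to 15199 in the 4 libraries. Each gene was represented by its transcript with the most counts. Few genes differed widely between replicates: 1.70% of well-counted genes differed more than 2-fold between the naive libraries and 0.691% between the TH2 libraries. Relative to counting error, replicates differed most in the TH2 pair, whose chi-square per degree of freedom was 21.4, against 5.31 for the naive pair and 2.65 for the TFH pair. The fit pooled these unequal spreads, so its standard errors and adjusted p-values may be too small for the TH2 libraries. With a TH2 library left out, the spread of that pair no longer entered the fit. The labels do not say whether replicates are separate mice, so the tests speak only of variation among these libraries, possibly of technical origin. Y-linked Ddx3y was under 1 CPM in naive and TH2 libraries, and at 81.4 and 84.1 CPM in the TFH libraries of the shared fit.

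Of 15799 genes tested with edgeR, 11043 (69.9%) differed at an adjusted p under 0.05, 5654 higher in TH2 cells (35.8%) and 5389 lower (34.1%). Because deep counts and few wide replicate differences let small changes pass, a stricter test asked whether the change exceeded 2-fold. It was passed by 2305 genes that rose (14.6%) and 1642 that fell (10.4%), together 3947 (25%). With each of the 6 libraries left out in turn, 8852 of the calls and 3156 of those past 2-fold held. The 2 groups did not overlap for 83.1% of genes tested. Counts of list members below are to be read against these shares. Where 4 CPM values stand in brackets, the naive libraries come first and the TH2 libraries after "against". In RNA from sorted cells, a lower value can mean fewer cells with a transcript or less of it per cell, which cannot be told apart here.

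**Figure D2:**
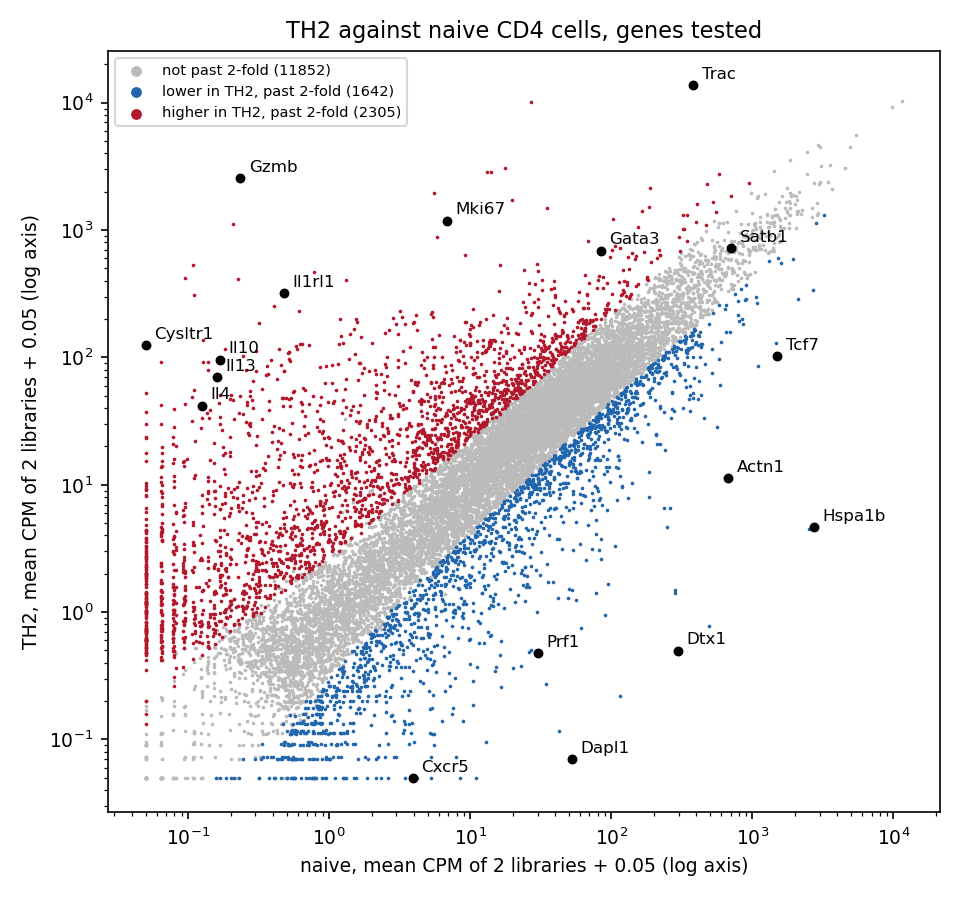
Mean CPM of the 2 TH2 libraries against that of the 2 naive libraries for each of 15799 genes tested, with 0.05 added and log axes. Red points (2305) rose and blue points (1642) fell past 2-fold, grey points did not pass that test, and labelled black points are genes named in the text.

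Genes of the TH2 list, chosen like the other lists with earlier results of these data known, mostly rose. Of 23 genes tested on the TH2 list, 21 rose, all of them past 2-fold, and 1 fell, with a median log2 ratio of 4.35 against -0.01 over all genes. All 22 calls held with each library left out. The cytokine genes were close to silent in naive cells. Il13, which drives mucus and airway responses, had 7 counts in the naive libraries together and was at 72.1 and 68.3 CPM in the TH2 libraries. Il4, the cytokine that defines the lineage, was at 0.0951 and 0.0560 CPM in naive and 41.8 and 41.7 CPM in TH2 libraries (log2 ratio 9.05 ± 0.19, edgeR adjusted p 9.66e-11). The label IL-4BacTg names IL-4, so the part of the transgene and of the hCD2 gate in the Il4 rise cannot be told apart from cell type. For Il5, the eosinophil growth factor, there was 1 naive count and 4.00 and 3.08 CPM in TH2 libraries, a ratio of 236-fold (95% interval 41.7 to 9367) from counts alone. No naive library reached the lowest TH2 library for any of these cytokines.

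Il10 and Il24, 2 cytokine genes of the IL-10 family, rose as well. Il10, an anti-inflammatory cytokine, was at 0.0951 and 0.140 CPM in naive and 105 and 87.3 CPM in TH2 libraries. Il24 had no naive count and was at 26.0 and 20.9 CPM in TH2 libraries, at least 262-fold higher when 3 counts are put in each naive library. Per kilobase of the counted transcript, the mean TH2 level was 73.3 CPM for Il10, 69.0 for Il4, 58.3 for Il13, 20.2 for Il24 and 2.30 for Il5. On this scale Il5 thus stood far below Il10, Il4, Il13 and Il24. Areg, an epidermal growth factor family member, was at 2.58 and 2.48 CPM after 3 naive counts, while Il3 and Il9 had no count in any of the 4 libraries.

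Il4, Il13 and Il5 lie near each other on mouse chromosome 11, and their promoters are shown because these genes moved together. The windows are the 250 bases before the start site (RefSeq, GRCm38.p6), 5′ to 3′, with capitals for the GATA motif (TGATAA or AGATAA on either strand) and for the AP-1 motif (TGANTCA).
Il13 (chr11:53634703-53634952, minus strand): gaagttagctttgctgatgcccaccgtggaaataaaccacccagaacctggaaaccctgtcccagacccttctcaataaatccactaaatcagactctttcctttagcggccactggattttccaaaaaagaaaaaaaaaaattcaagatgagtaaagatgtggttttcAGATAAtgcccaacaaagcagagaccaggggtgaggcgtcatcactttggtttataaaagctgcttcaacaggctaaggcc
Il4 (chr11:53617339-53617588, minus strand): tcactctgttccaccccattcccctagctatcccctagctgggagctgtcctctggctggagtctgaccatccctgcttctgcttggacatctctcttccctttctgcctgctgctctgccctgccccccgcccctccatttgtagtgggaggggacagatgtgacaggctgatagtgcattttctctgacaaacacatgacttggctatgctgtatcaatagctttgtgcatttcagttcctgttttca
Il5 (chr11:53720544-53720793, plus strand): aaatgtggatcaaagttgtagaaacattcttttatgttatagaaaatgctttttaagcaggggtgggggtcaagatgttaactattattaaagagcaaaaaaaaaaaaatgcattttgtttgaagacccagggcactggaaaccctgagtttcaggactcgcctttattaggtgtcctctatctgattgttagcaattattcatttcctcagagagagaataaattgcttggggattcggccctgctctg
The Il13 window holds 1 GATA match and the Il4 and Il5 windows hold no match to these letters. Among 19 TH2 list genes with a promoter in the table, 4 (21.1%) held the GATA motif, against 16.6% of all 32851 promoters in it, and 3 (15.8%) the AP-1 motif, against 6.75%. These are matches of letters, described without a test.

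Several receptor genes of the TH2 list rose, and Ptgdr2 did not pass the test. Il1rl1, which encodes the IL-33 receptor ST2, went from 0.412 and 0.448 CPM in naive to 333 and 304 CPM in TH2 libraries (log2 ratio 9.51 ± 0.13, edgeR adjusted p 1.86e-11). Il4ra, the IL-4 receptor alpha chain, was well expressed in both groups, at 355 and 333 CPM in naive and 1258 and 1375 CPM in TH2 libraries, and rose by 1.94 ± 0.08 on the log2 scale. Il17rb, a subunit of the IL-25 receptor, rose from 2.06 and 1.90 to 8.14 and 8.79 CPM. Ccr4 (1.11 and 1.15 CPM against 131 and 122) and Ccr8 (1.55 and 1.51 CPM against 191 and 186) guide TH2 cells to inflamed tissue, and neither gene's groups overlapped. Ptgdr2, the prostaglandin D2 receptor CRTH2, was under 1 CPM in all 4 libraries (0.603 and 0.923 CPM against 0.460 and 0.399). Ccr3, the eotaxin receptor, was too low to test, with 3 counts in naive and 22 in TH2 libraries.

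Among transcription factors, Gata3 was already present in naive cells at 86.0 and 81.8 CPM and reached 616 and 765 CPM in TH2 cells (log2 ratio 3.04 ± 0.11, edgeR adjusted p 3.75e-09). Pparg, a nuclear receptor for fatty acids, had 3 naive counts and was at 46.5 and 39.1 CPM in TH2 libraries. Maf, which acts on Il4 and Il10 (11.9 and 9.09 CPM against 170.4 and 173), Nfil3 (4.47 and 3.64 CPM against 202 and 229), Epas1, encoding HIF-2 alpha (24.8 and 22.9 CPM against 440.0 and 532), and Irf4 (7.42 and 7.25 CPM against 80.5 and 78.1) all rose past 2-fold. Ecm1, a secreted protein linked to TH2 cell egress, rose from 69.4 and 67.5 to 711 and 934 CPM. Stat6, which carries the IL-4 signal, moved the other way, from 343 and 335 CPM in naive to 139 and 149 CPM in TH2 libraries, and fell by 1.24 on the log2 scale.

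**Figure D3:**
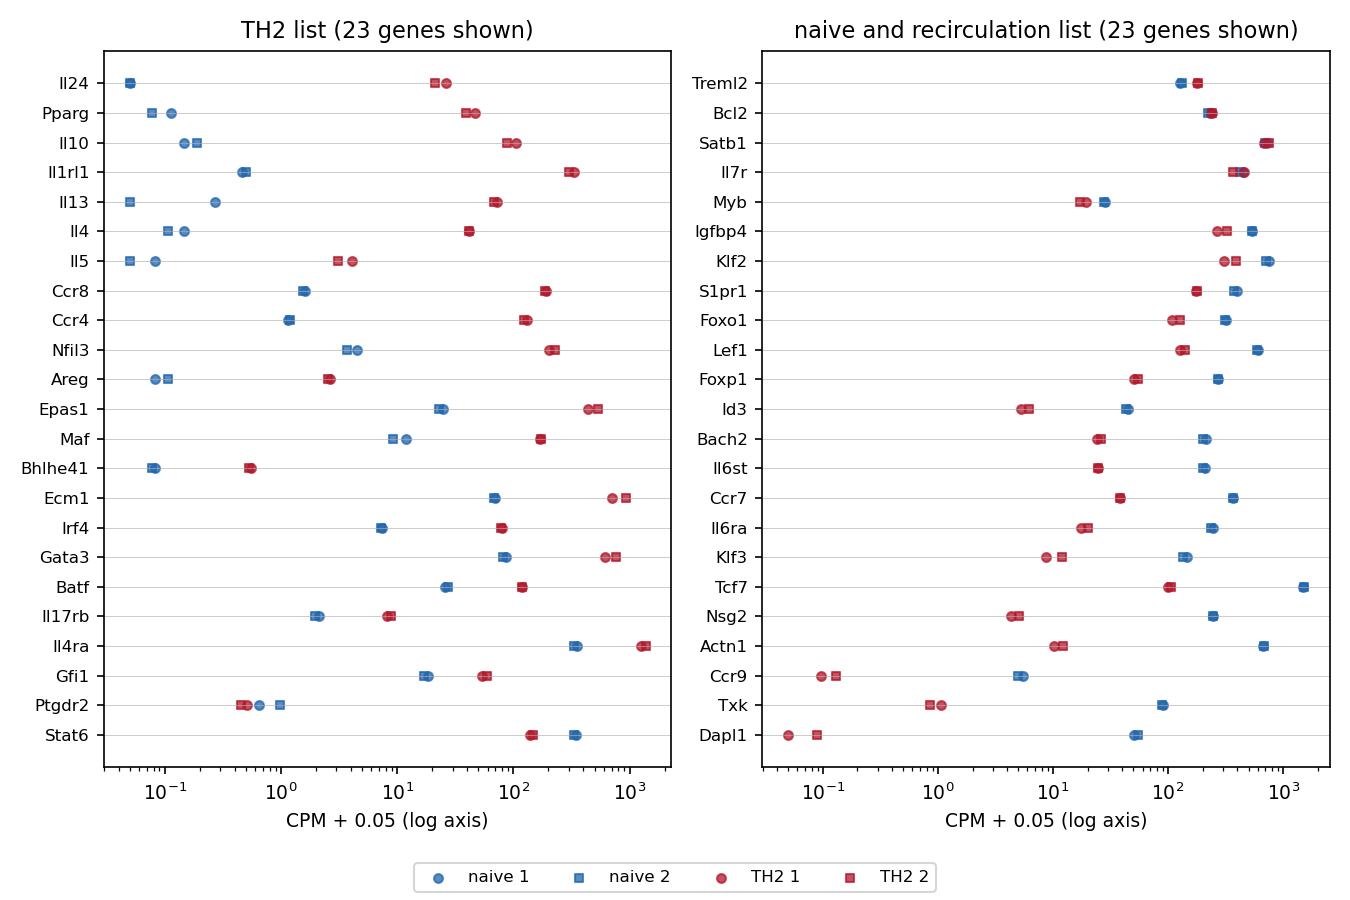
CPM plus 0.05 (log axis) in each naive (blue) and TH2 (red) library for the 23 tested genes of the TH2 list (left) and for 23 of the 24 of the naive and recirculation list (right), ordered by fitted log2 ratio. Il24 has no naive count, Stat6 lies lower in TH2 libraries, and Satb1 and Il7r overlap between groups.

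Genes of naive and recirculating T cells mostly fell: 20 of 24 were lower and 16 of these past 2-fold, with a median log2 ratio of -3.0. Genes that encode markers of the sort gates are no findings on this or any list. Ccr7, a lymph node homing receptor outside the gate, was at 364 and 364 CPM in naive and 38.3 and 38.1 CPM in TH2 libraries (log2 ratio -3.25 ± 0.07, edgeR adjusted p 1.49e-10). Tcf7, encoding TCF-1, fell from 1485 and 1516 to 99.5 and 105 CPM. Lef1 (599.6 and 595 CPM against 127 and 139), Bach2 (213 and 202 CPM against 24.2 and 25.9), Foxp1 (273 and 270.1 CPM against 50.7 and 54.8) and Id3 (45.0 and 43.2 CPM against 5.20 and 6.11), all regulators of the naive state, also fell past 2-fold.

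The largest falls on this list were in less studied genes. Dapl1 was at 50.5 and 54.8 CPM in naive libraries and had 1 count in the TH2 libraries together. Txk, a Tec family kinase, went from 90.4 and 89.0 to 1.01 and 0.799 CPM, Actn1, an actin crosslinker, from 671 and 676 to 10.2 and 12.1 CPM, and Nsg2 from 247 and 247 to 4.23 and 5.03 CPM. The egress genes Klf2 (748 and 708 CPM against 307 and 387) and S1pr1 (395 and 371 CPM against 176 and 179.6) were lower without passing the 2-fold test. Satb1, a chromatin organiser (717 and 699 CPM against 686 and 760.4), Il7r, the IL-7 receptor (448 and 425 CPM against 457 and 369.8), and Bcl2 (232 and 220.1 CPM against 240.2 and 241) were not called, and the groups overlapped for the first 2 of these. Treml2 was the 1 list member that rose (127 and 133 CPM against 179 and 181). Of 20 list genes with a promoter, 2 (10.0%) held the TCF motif CTTTGAA on either strand, against 4.46% of all promoters, and 14 (70.0%) the KLF motif CCNCNCCC, against 45.9%. On the TH2 list, whose genes mostly rose, 10.5% held the TCF and 78.9% the KLF motif, so neither share sets the naive list apart. The TCF letters contain the cell cycle motif searched below.

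Surface and cytoskeletal genes of memory and effector cells rose in 21 of 28 cases, 20 of them past 2-fold, and 5 fell, with a median log2 ratio of 2.84. Cd44 belongs to the naive gate and was at 41.8 and 42.8 CPM in naive and 243 and 218 CPM in TH2 libraries. S100a6, a calcium-binding protein, was at 0.729 and 0.728 CPM in naive and 489.9 and 446 CPM in TH2 libraries (log2 ratio 9.32 ± 0.13, edgeR adjusted p 1.86e-11). Lgals1, encoding galectin-1, rose from 33.0 and 36.6 to 1588 and 1387 CPM, and Anxa1, an annexin, from 4 counts to 59.9 and 50.2 CPM. The intermediate filament gene Vim rose from 189 and 185 to 2028 and 2224 CPM. Of the costimulatory receptor genes on the list, Tnfrsf4, encoding OX40 (11.9 and 13.9 CPM against 207 and 197), and Tnfrsf18, encoding GITR (30.8 and 30.0 CPM against 289.7 and 284), rose, while Cd27 fell (202 and 202 CPM against 71.4 and 67.5). Itga4, the alpha4 integrin chain, fell (338 and 336 CPM against 61.9 and 55.1), and the early activation marker Cd69 was not called (131 and 135 CPM against 161 and 131).

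All 14 chemokine receptors tested were called, 9 higher and 5 lower. Ccr1 had no naive count and was at 41.1 and 33.0 CPM in TH2 libraries, at least 413-fold higher. Ccr2 went from 0.127 and 0.224 to 462 and 360.0 CPM and Cxcr6 from 1.14 and 1.40 to 445 and 365 CPM (log2 ratio 8.30 ± 0.15, edgeR adjusted p 5.91e-11). Both are receptors of cells that enter inflamed or peripheral tissue. Beside Ccr7, the gut-homing receptor Ccr9 fell (5.42 and 4.92 CPM against 0.0460 and 0.0799), as did Ccr6 and Cxcr4, the latter short of the 2-fold test. Cxcr5, the receptor that leads cells into follicles, had 263 counts in naive libraries and none in TH2 libraries, at least 30.2-fold lower.

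Among cytokine receptors of the common gamma-chain and IL-1 families, 13 of 24 rose and 8 fell. Il2ra encodes CD25, which the naive gate excluded, and was at 26.0 and 25.8 CPM in naive and 392 and 375 CPM in TH2 libraries. Il2rb, outside the gate, rose from 47.5 and 47.5 to 209 and 239.8 CPM, and Il9r from 0.412 and 0.336 to 19.0 and 19.0 CPM. The decoy receptor Il1r2 had no naive count and was at 25.2 and 21.1 CPM, at least 259-fold higher in TH2 libraries. Crlf2, a chain of the TSLP receptor, rose (41.8 and 44.3 CPM against 126 and 169). Both chains of the IL-6 receptor fell, Il6ra from 244 and 236 to 17.4 and 20.1 CPM and Il6st from 211 and 202 to 24.7 and 24.6 CPM. Il18rap rose (0.476 and 0.700 CPM against 45.24 and 40.1) while its partner Il18r1 fell (36.2 and 33.9 CPM against 18.5 and 15.6), and Tgfbr2, a TGF-beta receptor chain, fell (355 and 338 CPM against 99.2 and 117).

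The TH1 and cytotoxic list was mixed. Of its 19 tested genes 11 rose, 7 past 2-fold, and 3 fell. Gzmb, the granule protease granzyme B, went from 0.285 and 0.0839 CPM in naive to 2792 and 2349 CPM in TH2 libraries (log2 ratio 13.78 ± 0.23, edgeR adjusted p 4.45e-11), and Gzma from 0.0951 and 0.224 to 1259 and 960.1 CPM. Prf1, the pore-forming perforin that delivers granzymes, fell instead, from 29.9 and 30.0 to 0.368 and 0.479 CPM (log2 ratio -6.12 ± 0.17, edgeR adjusted p 4.57e-10). The TH1 master factor Tbx21 stayed under 1 CPM and was not called (0.349 and 0.476 CPM against 0.138 and 0.359), and Ifng, encoding interferon-gamma, had 47 counts in naive and 2 in TH2 libraries. Il12rb1, a chain of the IL-12 receptor, rose (2.95 and 3.52 CPM against 188 and 229) but Il12rb2, the chain that conveys the TH1 signal, was not called (1.27 and 1.29 CPM against 1.47 and 1.40).

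Other helper programmes were mixed. Of 7 TH17 genes tested, 4 rose, among them Rora (8.37 and 6.60 CPM against 44.6 and 40.2) and Ltb4r1, a leukotriene B4 receptor (0.0634 and 0.112 CPM against 74.8 and 83.9). The cytokine gene Il17a had no count in the 4 libraries. On the regulatory T cell list, which includes the gated Il2ra, 9 of 13 rose and 4 fell. Foxp3, the factor that defines these cells, was at 57.8 and 61.2 CPM in naive and 13.1 and 12.5 CPM in TH2 libraries and fell, with Ikzf2 (27.8 and 24.5 CPM against 1.52 and 1.52), while Ctla4 (18.2 and 17.9 CPM against 223 and 187) and Lrrc32 (16.5 and 15.2 CPM against 94.1 and 105) rose. On the TFH list 8 of 16 genes fell, all past 2-fold, and 4 rose, 1 past 2-fold. Bcl6, the TFH master repressor, fell (28.3 and 28.0 CPM against 6.90 and 7.59), as did Tox (59.0 and 60.2 CPM against 3.36 and 3.40) and Btla (86.0 and 84.4 CPM against 3.04 and 2.08), whereas Icos rose (24.7 and 24.4 CPM against 275 and 219) and the cytokine gene Il21 was under 1 CPM and not called (0.190 and 0.224 CPM against 0.230 and 0.1198).

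Inhibitory receptors rose in 10 of 11 cases, 7 past 2-fold. The largest rise was in Lilrb4a, with 3 naive counts and 469 and 369.8 CPM in TH2 libraries, but it shares much sequence with its neighbour Lilr4b (0.0317 and 0.0839 CPM against 587 and 473), so the split of reads between them is uncertain. Tigit rose from 1.65 and 1.46 to 36.2 and 38.9 CPM. Pdcd1, encoding PD-1, rose short of the 2-fold test, from 4.19 and 4.03 to 6.21 and 6.11 CPM, and Lag3 rose (3.42 and 3.72 CPM against 10.7 and 11.5).

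Genes of the T cell receptor complex and of signalling close to it changed by smaller amounts: 6 of 20 rose and 11 fell, 1 and 3 of them past 2-fold, with a median log2 ratio of -0.35. Cd4 was at 659.6 and 679 CPM in naive and 523 and 506 CPM in TH2 libraries, and both gates required the CD4 protein. The invariant chain Cd3g rose (311 and 314 CPM against 746 and 584), and Cd247, the zeta chain, was not called (301 and 308 CPM against 298 and 272). The kinase genes Lck (981 and 945 CPM against 442 and 468) and Fyn (416 and 396 CPM against 181 and 205) fell, while Zap70 was not called (294 and 280.3 CPM against 264 and 312). Larger falls were in Cd5 (417 and 424 CPM against 64.0 and 66.6) and Cd6 (455 and 453 CPM against 31.4 and 35.8), receptors that dampen the signal, and in Txk. Rasgrp1, which links the receptor to Ras, rose past 2-fold (310.4 and 299.8 CPM against 693 and 667), though the 2-fold call did not hold with each library left out.

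Immediate early genes, which respond within minutes to receptor signals and also to cell handling, fell in 14 of 20 cases, 5 past 2-fold, and 4 rose. Nr4a1, a read-out of receptor signalling, was at 425 and 398 CPM in naive and 42.9 and 51.0 CPM in TH2 libraries (log2 ratio -3.13 ± 0.10, edgeR adjusted p 1.50e-09). Egr2 (17.9 and 18.0 CPM against 1.89 and 2.92) and Nr4a3 (16.8 and 15.9 CPM against 0.690 and 0.399) fell as well. Fos (1452 and 1410.0 CPM against 766 and 806) and Jun (1530.0 and 1503 CPM against 824 and 979) were high in all 4 libraries and lower in TH2 cells short of the 2-fold test. Fosl2 rose (22.1 and 21.1 CPM against 142 and 163). Among 15 NF-kB and Ikaros family genes, 4 rose and 8 fell. Past 2-fold were only Ikzf4, higher (11.2 and 11.5 CPM against 45.4 and 46.6), and Ikzf2 and Ikzf3, lower (Ikzf3 144 and 128 CPM against 30.3 and 34.0).

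Cell cycle genes had the highest median of the 21 programme lists, 5.00 on the log2 scale: 22 of 25 rose, 21 past 2-fold, and 2 fell. Mki67, the proliferation marker Ki-67, was at 6.75 and 6.91 CPM in naive and 1252 and 1125 CPM in TH2 libraries (log2 ratio 7.44 ± 0.12, edgeR adjusted p 4.45e-11). The mitotic genes Cdk1 (0.476 and 0.308 CPM against 126 and 107), Ccnb2, encoding cyclin B2 (0.603 and 0.728 CPM against 123 and 127), and Cdc20 (2.76 and 3.25 CPM against 141 and 165) had log2 ratios between 5.67 and 8.22. The replication genes Mcm2 (76.1 and 73.0 CPM against 182 and 215) and Pcna (115 and 112 CPM against 417 and 361), with log2 ratios of 1.41 and 1.78, were already expressed in naive cells. The cell cycle inhibitor Cdkn1a (p21) rose from 0.444 and 0.224 to 92.2 and 97.0 CPM. Cdkn1b (p27) was not called (229 and 224 CPM against 225 and 211), and the D-type cyclins Ccnd2 (388 and 369.6 CPM against 286 and 294) and Ccnd3 (282 and 269 CPM against 159 and 180.0) fell.

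Mitotic genes rose together, and 3 of their promoters are shown, those searched that hold both motifs below. Capitals mark the CCAAT box (CCAAT) and the cell cycle homology motif (CHR, TTTGAA) on either strand, a pair of elements known from mitotic promoters. Windows are as above.
Cdk1 (chr10:69352913-69353162, minus strand): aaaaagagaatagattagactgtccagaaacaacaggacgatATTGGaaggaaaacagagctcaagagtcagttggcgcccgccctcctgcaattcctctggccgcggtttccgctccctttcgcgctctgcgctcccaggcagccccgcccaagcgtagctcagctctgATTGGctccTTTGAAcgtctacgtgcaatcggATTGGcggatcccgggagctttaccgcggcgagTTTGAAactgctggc
Ccnb2 (chr9:70421555-70421804, minus strand): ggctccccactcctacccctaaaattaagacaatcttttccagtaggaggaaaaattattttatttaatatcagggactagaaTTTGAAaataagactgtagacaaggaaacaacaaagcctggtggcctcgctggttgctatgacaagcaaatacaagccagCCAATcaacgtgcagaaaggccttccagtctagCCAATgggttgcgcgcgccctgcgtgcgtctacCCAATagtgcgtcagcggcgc
Cdc20 (chr4:118437344-118437593, minus strand): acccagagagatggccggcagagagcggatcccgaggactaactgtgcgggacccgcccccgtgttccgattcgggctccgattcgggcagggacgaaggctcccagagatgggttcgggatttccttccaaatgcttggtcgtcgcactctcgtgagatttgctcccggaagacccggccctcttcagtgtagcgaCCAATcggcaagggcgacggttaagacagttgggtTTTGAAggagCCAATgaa
The Cdk1 window holds 3 CCAAT and 2 CHR matches, the Ccnb2 window 3 and 1, and the Cdc20 window 2 and 1. The windows of the mitotic genes Ccnb1 and Plk1, searched but not printed, hold 2 and 1 CCAAT matches and no CHR match. Of 22 cell cycle genes with a promoter, 16 (72.7%) held CCAAT, against 33.9% of all promoters, and 6 (27.3%) held CHR, against 16.0%. On the TH2 list and the naive and recirculation list, CHR was in 21.1 and 20.0% of promoters and CCAAT in 26.3 and 25.0%. The CHR share of the cell cycle list thus stood little above theirs. Both motifs were chosen after the cell cycle list's values were seen.

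Metabolic genes rose with them, to differing degrees. All 17 glycolysis genes rose, 14 past 2-fold, with a median log2 ratio of 1.55. Hk2, an inducible hexokinase, went from 0.793 and 0.839 CPM to 31.1 and 34.7 CPM, Gapdh from 581 and 576 to 2857 and 2650.0 CPM, and Hif1a, a regulator of glycolysis, from 65.5 and 64.3 to 455 and 425 CPM. Cholesterol synthesis genes rose in 17 of 19 cases but only 7 past 2-fold, among them Insig1 (27.2 and 26.8 CPM against 103 and 96.8) and Lss (19.9 and 17.3 CPM against 53.0 and 58.0). The median log2 ratio of this list was 0.78. Nuclear-encoded respiratory chain genes rose in 16 of 20 cases, 3 past 2-fold, all of these subunits of cytochrome c oxidase such as Cox5a (39.5 and 42.2 CPM against 150.3 and 146). The median log2 ratio of the respiratory chain list was 0.43. Its share past 2-fold was near the 14.6% of all genes tested that rose so far. With each library left out, 12 of those 16 calls held. Ribosomal protein genes fell in 10 of 20 cases and none passed the 2-fold test. Only 4 of the 10 calls held with each library left out: Rpl5, Rpl8, Rps14 and Rps24, the last at 1770.0 and 1841 CPM in naive and 1189 and 871 CPM in TH2 libraries.

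Genes of lipid mediators rose in 10 of 13 cases, each past 2-fold, and none fell. Alox5, the lipoxygenase of leukotriene synthesis, had no naive count and was at 3.86 and 4.43 CPM in TH2 libraries, at least 46.3-fold higher. Its partner Alox5ap (0.381 and 0.392 CPM against 14.2 and 13.3) and Hpgds, a prostaglandin D2 synthase (3.33 and 2.91 CPM against 31.4 and 23.1), rose. The monoglyceride lipase Mgll rose from 5 counts to 27.4 and 28.7 CPM and the fatty acid binding protein gene Fabp5 from 3.27 and 2.74 to 61.8 and 56.8 CPM. Ptger4, a prostaglandin E2 receptor, was not called (40.9 and 43.1 CPM against 40.9 and 45.9).

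Interferon response genes fell in 14 of 20 cases, 13 past 2-fold, and 5 rose, 3 of them with each library left out, with a median log2 ratio of -1.60. Oas2, an antiviral enzyme, went from 50.8 and 47.0 CPM in naive to 1.29 and 1.20 CPM in TH2 libraries (log2 ratio -5.30 ± 0.13, edgeR adjusted p 2.16e-10). The signalling gene Irf7 (62.3 and 65.4 CPM against 17.9 and 23.9) and the effector Rtp4 (16.5 and 16.0 CPM against 0.414 and 0.399) fell. The fall did not extend to every member, since Oas3 (21.9 and 19.4 CPM against 52.7 and 62.5), Isg20 (9.42 and 10.0 CPM against 46.6 and 43.5) and Mx1 (0.951 and 0.700 CPM against 4.92 and 4.75) rose. Of 14 Bcl2 family genes 8 rose and 4 fell. Bcl2l11, encoding the death-promoting protein BIM, fell (54.1 and 54.0 CPM against 15.4 and 15.9), while Pmaip1, encoding NOXA, rose (2.12 and 1.74 CPM against 28.9 and 24.8) and the survival gene Mcl1 was not called (444 and 436 CPM against 428 and 419).

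**Figure D4:**
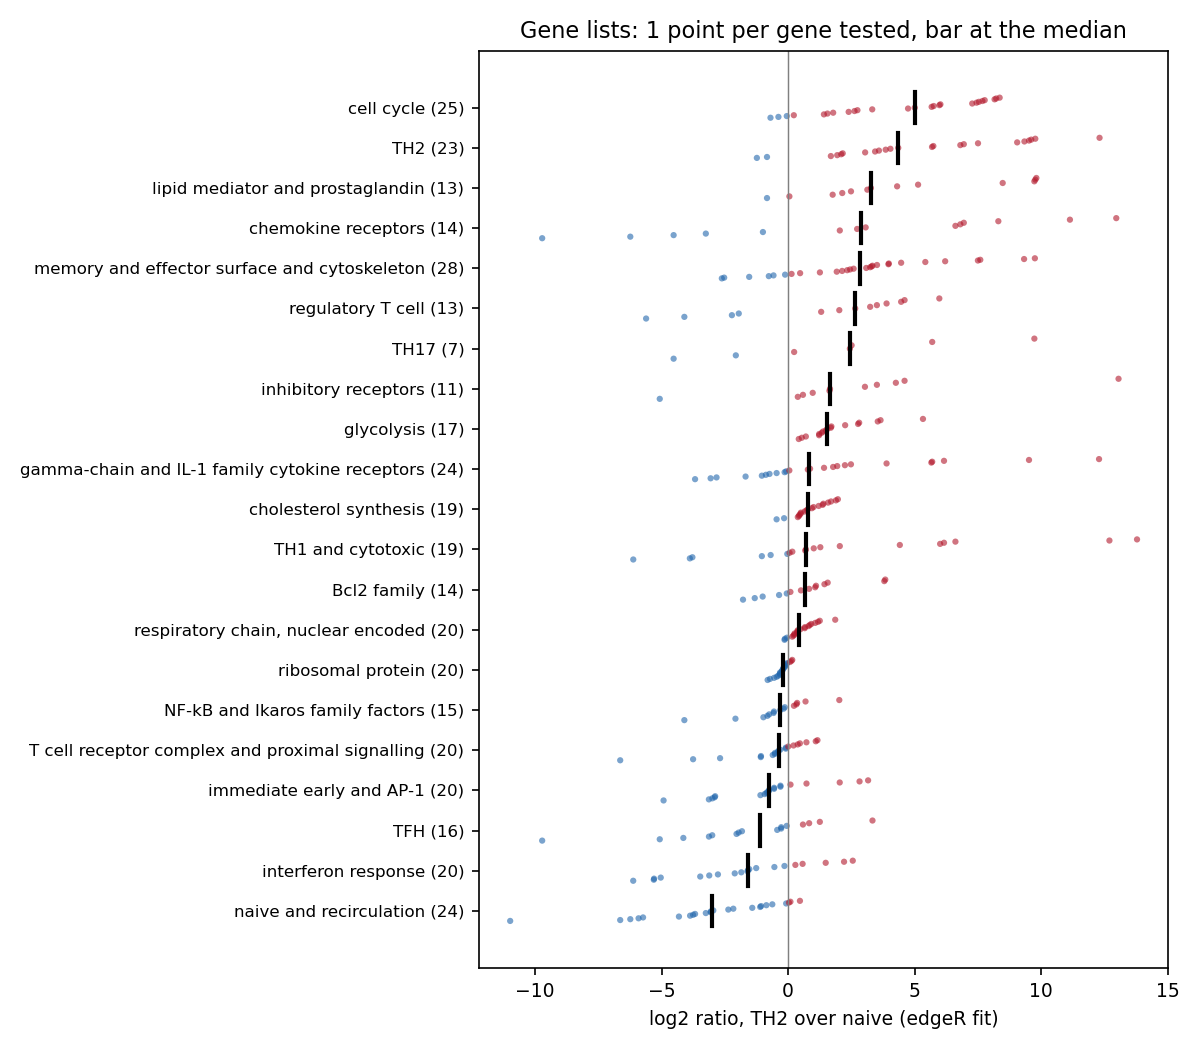
Fitted log2 ratio of TH2 over naive for each tested member of 21 gene lists, 1 point per gene (red above 0, blue below), with a black bar at the list's median and the number tested in brackets. Medians run from 5.00 for cell cycle genes to -3.0 for naive and recirculation genes. Fitted ratios of genes with no count in 1 group are not bounds.

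Ranked over all genes called past 2-fold, with at least 20 CPM in the higher group, the largest rises included receptors and enzymes outside the TH2 list. Cysltr1, a receptor for cysteinyl leukotrienes, had no count in either naive library and was at 143 and 107 CPM in TH2 libraries, at least 1392-fold higher. Cyp11a1, the enzyme that begins steroid synthesis from cholesterol, had 4 naive counts and was at 306 and 315 CPM. Hes1, a target of Notch, had no naive count and was at 48.6 and 56.9 CPM, at least 589-fold higher. Dtx1, another gene tied to Notch, was among the largest falls, from 299.8 and 293 to 0.460 and 0.439 CPM. The matrix-related gene Adamtsl3 (0 and 0.0280 CPM against 91.4 and 92.2), the membrane protein gene Ifitm1 (0.127 and 0.0280 CPM against 145 and 131) and Metrnl, a secreted factor (0.127 and 0.0280 CPM against 88.1 and 97.3), rose. Pdgfrb, a growth factor receptor usually known from stromal cells, had no naive count and was at 26.7 and 33.5 CPM.

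On the side of the falls, Atp1b1, a sodium pump subunit, went from 119 and 113 to 0.138 and 0.200 CPM and Slc16a5, a transporter, from 40.6 and 44.3 to 0.0920 and 0.0399 CPM. Amigo2 (34.8 and 34.2 CPM against 0.322 and 0.1198), Prag1 (62.9 and 59.4 CPM against 0.598 and 0.799), App, encoding the amyloid precursor protein (23.1 and 22.5 CPM against 0.0920 and 0.559), Sorcs2 (19.7 and 20.5 CPM against 0.184 and 0.439) and Tmie (95.8 and 94.2 CPM against 1.52 and 1.72) complete this group with Dapl1, Txk, Prf1, Actn1 and the heat shock genes below. By difference in mean CPM the largest rises were in Trac and 4 Trav14 segments. The largest falls were in Hspa1b, Hspa1a, the cytoskeletal linker Macf1 (2781 and 2593 CPM against 334 and 337), Arhgap45 (3263 and 3206 CPM against 1210.0 and 1421) and Kmt2d, a histone methyltransferase (2155 and 2059 CPM against 259 and 317). CPM is not scaled to length, and the counted Macf1 and Kmt2d transcripts are 23398 and 19823 bases long. Per kilobase, the mean naive level was 114.8 CPM for Macf1, 106.3 for Kmt2d and 969.3 for Hspa1b. In TH2 libraries it was 14.35, 14.52 and 1.646.

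The heat shock genes Hspa1b and Hspa1a had the largest falls in CPM. Hspa1b was at 2733 and 2701 CPM in naive and 3.68 and 5.55 CPM in TH2 libraries (log2 ratio -9.19 ± 0.16, edgeR adjusted p 4.91e-11), and Hspa1a was at 2519 and 2496 CPM in naive and 3.49 and 5.35 CPM in TH2 libraries. The 2 genes encode HSP70 proteins with nearly the same sequence, so the split of reads between them is uncertain. Their neighbour Hspa1l fell too (283 and 284 CPM against 1.38 and 1.52). Other heat shock genes, named after their values were seen, moved less: Hsph1 (149 and 145 CPM against 34.9 and 34.98) and Dnajb1 (223 and 221 CPM against 84.5 and 82.3) fell past 2-fold, Hspa8 was not called (2739 and 2749 CPM against 2538 and 2188), and Hspa4 rose past 2-fold (123 and 123 CPM against 417 and 382). Hsp90ab1 (2693 and 2629 CPM against 1227 and 1304) and Dnaja1 (359.6 and 342 CPM against 191 and 151) fell and Hspa5 rose (434 and 429 CPM against 917 and 826), all short of the 2-fold test, and Hsp90aa1 was not called (353 and 347 CPM against 409 and 325). As background, the HSP70 genes respond to heat and other stress of the cell. In the TFH libraries Hspa1a was at 269 and 258 CPM, between the other groups.
Their promoters, windows as above, are shown for how alike the pair is. Capitals mark a heat shock element letter pattern (GAANNTTC).
Hspa1a (chr17:34972157-34972406, minus strand): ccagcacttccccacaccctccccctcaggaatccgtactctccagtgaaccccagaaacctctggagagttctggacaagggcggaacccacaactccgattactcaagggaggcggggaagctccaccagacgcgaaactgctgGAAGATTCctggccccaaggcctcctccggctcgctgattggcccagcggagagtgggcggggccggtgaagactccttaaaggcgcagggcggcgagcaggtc
Hspa1b (chr17:34959239-34959488, minus strand): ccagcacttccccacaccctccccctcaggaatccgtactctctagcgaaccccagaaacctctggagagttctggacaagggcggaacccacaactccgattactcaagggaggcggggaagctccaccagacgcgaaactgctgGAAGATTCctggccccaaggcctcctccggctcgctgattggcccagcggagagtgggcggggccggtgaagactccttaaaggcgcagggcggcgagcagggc
The 2 windows differ at 3 of 250 bases and hold 1 match each. At least 1 match was in 6.69% of all promoters.

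Markers of other cells were checked in 8 lists of 77 genes, of which 44 passed the filter on low counts. The defining genes Ncr1 (NK cells), Fcer1a and Ms4a2 (basophils and mast cells), S100a8 and S100a9 (neutrophils) and Pf4 (platelets) had no count in any of the 4 libraries. Of the genes tested, 2 of 7 rose and 2 fell on the B cell list, 2 of 5 and 1 on the plasma cell list, 1 of 9 and 6 on the myeloid list, and 1 of 3 and 1 on the basophil and mast cell list. On the CD8 and NK cell list 0 of 4 rose and 4 fell, and the counts were 3 of 8 and 2 on the NKT cell list, 3 of 3 and 0 on the gamma-delta T cell list, and 2 of 5 and 2 on the erythroid and platelet list. With each library left out, 1 of the 2 falls on the B cell list, 5 of the 6 on the myeloid list and 2 of the 4 on the CD8 and NK cell list held. Summed over its list, B cell signal was 6.32 to 7.96 CPM in naive and 24.7 to 27.2 CPM in TH2 libraries. Most of the latter was H2-Ab1, an MHC class II chain (0.127 and 0.168 CPM against 15.3 and 18.0), while Cd74 fell (3.46 and 2.71 CPM against 1.33 and 1.40). Myeloid signal was 27.3 to 28.6 CPM in naive and 20.1 to 21.3 CPM in TH2 libraries. CD8 and NK cell signal was 21.0 to 21.8 CPM in naive and 11.5 to 12.8 CPM in TH2 libraries, beside the rise of the granzyme genes. Plasma cell signal was 32.2 to 34.7 CPM in naive and 183 to 185 CPM in TH2 libraries, made up mainly of Xbp1 (28.5 and 26.4 CPM against 159.7 and 153) and Prdm1 (5.61 and 5.46 CPM against 25.4 and 30.1), which T cells also express, with Jchain at 27 counts in naive and 1 in TH2 libraries. NKT cell signal was 59.0 to 60.0 CPM in naive and 227 to 258 CPM in TH2 libraries, most of it Il2rb, with Zbtb16 not called (0.507 and 0.420 CPM against 0.414 and 0.280).

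A few markers took most of their list's sum in TH2 libraries. Cpa3, a mast cell protease, rose from 0.476 and 0.532 to 60.2 and 46.6 CPM, which raised the basophil and mast cell sum from between 3.16 and 3.27 CPM to between 47.1 and 60.9 CPM, while Cd200r3 fell (2.44 and 2.49 CPM against 0.230 and 0). The alpha globin genes Hba-a1 (2.12 and 3.33 CPM against 23.3 and 21.3) and Hba-a2 (2.19 and 3.33 CPM against 21.2 and 19.4), near-identical copies, rose while the beta globin gene Hbb-bs fell (1.78 and 2.55 CPM against 0.0460 and 0). The erythroid and platelet sum was 8.31 to 12.0 CPM in naive and 41.3 to 45.3 CPM in TH2 libraries. Tcrg-C2, a constant region of the gamma chain, had 6 naive counts and was at 42.7 and 33.9 CPM. Tcrg-C1 (0.317 and 0.196 CPM against 11.2 and 6.87) and, outside the list and named after its values were seen, the gamma chain segment Trgv2 (0.0317 and 0 CPM against 14.4 and 13.5) rose too. The gamma-delta T cell sum, in which each of the 3 genes tested rose, was 0.979 to 1.24 CPM in naive and 42.7 to 56.4 CPM in TH2 libraries. Trdv4 had 10 counts in TH2 libraries and none in naive libraries, and Sox13 was too low to test. The part of other cells in the results above was not tested.

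Because each gene was read from 1 transcript, use of transcripts within genes was tested separately with edgeR. A call says that a transcript changed relative to the others of its gene. Of 44107 transcripts in 8354 genes, 767 (1.74%) in 367 genes passed at an adjusted p under 0.05, and 279 held with each library left out. A read can be counted on several transcripts here, so neighbouring transcripts share values. Of 20 genes picked for their known isoforms, 15 could be tested and 2 held a call. For Foxp1, the short transcripts Foxp1-202, Foxp1-211 and Foxp1-212 fell beyond the rest of the gene. Foxp1-202 was at 24.4 and 21.6 CPM in naive and 0.506 and 1.08 CPM in TH2 libraries, and its change relative to the gene was -1.66 on the log2 scale (edgeR adjusted p 1.90e-14). For Satb1, the short Satb1-201 passed by a small margin (-0.23, edgeR adjusted p 0.0342) and its call did not hold with each library left out.

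Tyms, the thymidylate synthase gene of the cell cycle list, gave different values by transcript. Its most abundant transcripts, Tyms-204 and Tyms-201, were near 120 CPM in naive libraries and Tyms-204 rose by only 0.22 ± 0.09 (log2, edgeR adjusted p 0.0476), a call lost when naive replicate 1 or 2, TH2 replicate 1 or TFH replicate 1 or 2 was left out. Summed over its transcripts, the gene rose by 0.865 on the log2 scale (edgeR adjusted p 2.90e-05). The other 4 rose relative to the gene: Tyms-205 was at 1.17 and 1.96 CPM in naive and 56.2 and 49.1 CPM in TH2 libraries, with a change relative to the gene of 2.90 (edgeR adjusted p 2.73e-14). Gins2, a replication factor gene, was alike. Gins2-201 was at 58.5 and 57.3 against 42.4 and 45.4 CPM, while Gins2-204 went from 0.285 and 0.364 to 14.1 and 15.1 CPM. In Inpp4b, a lipid phosphatase gene, a retained intron transcript (Inpp4b-210) rose from 0.444 and 0.616 to 29.3 and 25.0 CPM, and no other transcript of the gene was called. Similar calls under the naming rule were in Arhgap27, Hmmr, Pltp, Rab27b, Rgs3, Soat2 and Zbtb38, and those of Pltp and Rab27b did not hold with each library left out.

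**Figure D5:**
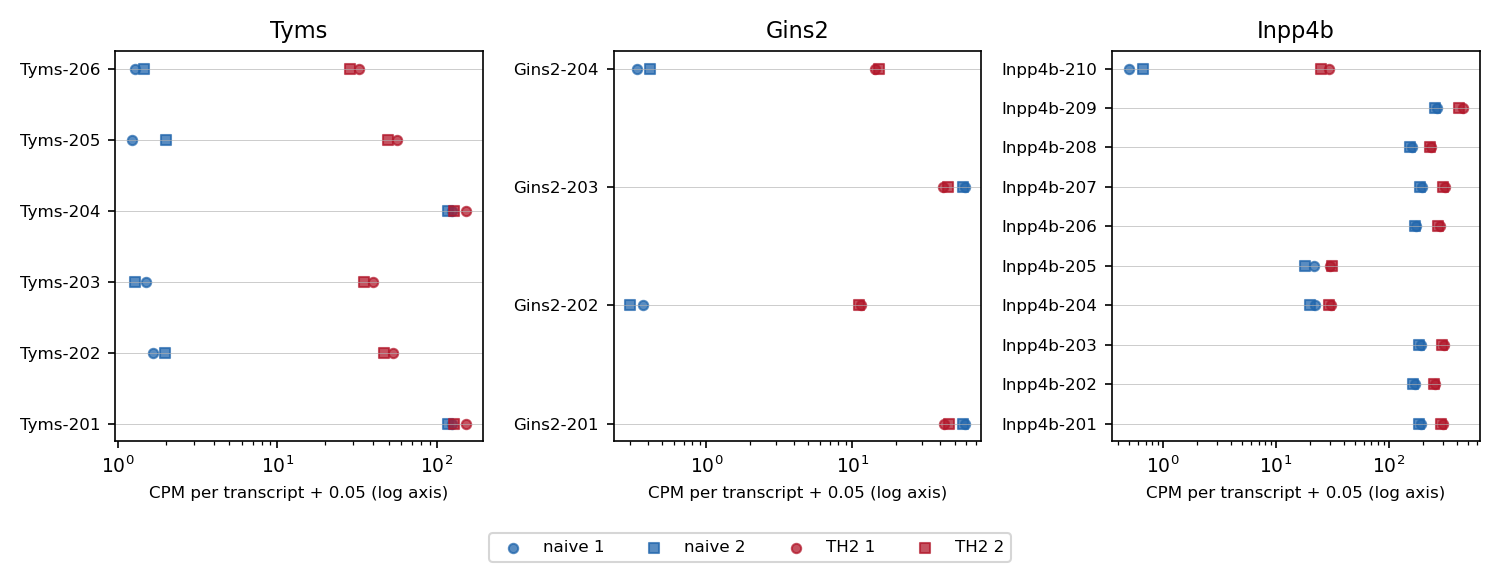
CPM plus 0.05 (log axis) per transcript of Tyms, Gins2 and Inpp4b in each naive (blue) and TH2 (red) library. Tyms-201, Tyms-204, Gins2-201 and Gins2-203 lie close together in the groups, while Tyms-205, Gins2-204 and Inpp4b-210 lie far apart.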

How the data were processed

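Sorted splenic CD4 T cells were profiled by RNA-seq (10 ng of total RNA, NEB Next Ultra kit, per the labels). The authors deposited whole-number counts per transcript. Per the submitters' processing notes, the series used featureCounts 1.6.0, STAR 2.7.0c and Bowtie 0.12.2 with builds mm9, mm10 and GRCm38.p6. Which of them made these files is not given in the sources. Of 95883 transcript identifiers, 82946 were named by GENCODE M21, and the others, with 14.9% of counts, were left out. In 540 of 8191 genes, transcripts held identical counts in all 6 libraries, so a read may have been counted on several transcripts. Each gene therefore took its transcript with the most counts over the 4 libraries.

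The quasi-likelihood test of edgeR 4.0.16 (R 4.3.3) was applied to these counts, with TMM factors, filterByExpr at its defaults (10 counts in a library, 15 in all) and robust fitting of 3 groups (3 residual degrees of freedom), glmTreat at 2-fold, diffSpliceDGE and Benjamini-Hochberg adjustment over all features. Levels are CPM and differences log2 ratios ± standard error. A bound puts 3 counts in each empty library. Intervals and bounds cover counting error only. DESeq2 1.42.0, other scalings, filters and transcript choices, and each library left out were the alternatives. The fit was checked on simulated counts with few changed genes and a single spread for all genes. That check does not cover the wide change and unequal spread of these libraries. Groups came from the labels.

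Members and lists were chosen with earlier results of these data known. The text names list members, the 15 largest log2 ratios each way (past 2-fold, at least 20 CPM, held with each library left out, without Gm and Rik symbols, pseudogenes and receptor segments) and the 5 largest CPM differences each way. For transcripts it names a list of 20 genes and the 10 genes with the largest relative change. Promoters matched 66.3% of genes tested, so motif shares are given for lists only. Some list members are not reported here by name, but stay in the lists' counts and medians.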

Additional observations from a re-analysis of the deposited data

How the results depend on the processing

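The total numbers of called genes stayed within 1.5 times of those reported under each alternative run: 9637 to 11705 genes at an adjusted p under 0.05 and 2837 (DESeq2) to 4227 (no filter) past 2-fold, against 11043 and 3947. By direction, the genes that fell past 2-fold were 1024 with DESeq2, against 1642. Of 417 tested genes of the lists and the naming rule, 353 kept their side of the threshold in each alternative, and of 6064 gene values under them 108 lost a call, 52 gained one and 1 changed sign with a call. Transcript use moved most, from 767 calls to between 349 and 1179 as single libraries were left out (384 without naive replicate 1, 349 without naive replicate 2, 1179 without TH2 replicate 2). Some values changed sign, and the cause was not tested: the B cell list median (-0.75 to 0.00727 with single libraries left out, above 0 without naive replicate 1), the basophil and mast cell median (1.11 with only TH2 and naive libraries), the NKT cell median (0.48 with only these libraries, 0.27 without receptor genes, and -0.31 to 0.12 with single libraries left out, above 0 without naive replicate 2) and Runx3 (0.14 without TH2 replicate 1, edgeR adjusted p 0.0341, and -0.21 without TH2 replicate 2, adjusted p 0.00579). With the bound in place of fitted ratios for genes that had no count in a group, the medians of the CD8 and NK cell list (-2.78) and of the NKT cell list (-0.19) became -0.84 and -0.02, and no other of the 29 moved. No paired analysis was possible because the labels give no replicate numbers. Upper-quartile scaling moved the median of all genes to -0.09. Without the TFH group in the fit, 10547 genes were called, against 11043. Genes with a handful of counts in a group, such as Il5, have imprecise ratios at this depth.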
